A study of Mus musculus with 12 samples.

Results

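The mitochondrial calcium uniporter complex and its functional partners were followed through 9 genes of the deposited expression table, found by gene name among 54532 genes: Mcu, Mcub, Smdt1, Micu2, Micu3, Mcur1, Slc8b1, Letm1 and Afg3l2. RNA sequencing was done on primary hepatocytes (parenchymal liver cells taken into culture) of 6-week-old mice, in 4 groups of 3 libraries. Cells of G3bp1-Flox control mice (Flox) and of mice with a hepatocyte-specific knockout of G3bp1 (HKO) were each given BSA or PA, abbreviations that are used here as the labels have them. Dose, duration and the Cre driver of the knockout were not found in the sources used here. The series title concerns G3BP1, a stress granule protein that binds RNA, and the function of the uniporter complex. The comparisons below give the RNA level of that complex with and without G3bp1 and PA.

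Calcium enters the mitochondrial matrix through a channel in the inner membrane whose pore is built from MCU subunits. MCUB is a paralog of MCU that joins the pore and lowers its conductance, SMDT1 (also called EMRE) is a small membrane protein that the animal channel needs for transport, and the MICU proteins sit on the outer face and gate the pore according to calcium in the intermembrane space. MCUR1 is a regulator or assembly factor of the channel, SLC8B1 (also called NCLX) carries calcium back out in exchange for sodium, LETM1 is an inner-membrane cation exchanger, and AFG3L2 is a subunit of the m-AAA protease, which degrades SMDT1 that has not been assembled. In liver, calcium taken up in this way stimulates matrix dehydrogenases and oxidative metabolism.

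For orientation, the 250 bases before the RefSeq start are shown for both pore subunits, because their RNAs behaved differently between the genotypes, and for Smdt1, the most abundant member. The sequences are from RefSeq (GRCm38.p6), read 5′ to 3′ on the strand of the gene, and 6 of the 9 genes had an entry. Capitals mark matches to any of 7 motifs searched on both strands, and no match to any other of them was found in these 3 windows.
Mcu, chr10:59616693-59616942, minus strand: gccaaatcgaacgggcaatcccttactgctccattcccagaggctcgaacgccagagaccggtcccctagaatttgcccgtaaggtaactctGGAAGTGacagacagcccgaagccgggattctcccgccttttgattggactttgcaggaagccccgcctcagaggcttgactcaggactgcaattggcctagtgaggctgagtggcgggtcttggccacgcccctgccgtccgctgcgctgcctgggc
Mcub, chr3:129970207-129970456, minus strand: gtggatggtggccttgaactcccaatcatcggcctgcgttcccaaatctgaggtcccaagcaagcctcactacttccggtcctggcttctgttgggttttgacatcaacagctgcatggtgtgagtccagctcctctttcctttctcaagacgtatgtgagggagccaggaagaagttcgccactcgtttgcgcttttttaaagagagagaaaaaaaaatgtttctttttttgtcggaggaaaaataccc
Smdt1, chr15:82345796-82346045, plus strand: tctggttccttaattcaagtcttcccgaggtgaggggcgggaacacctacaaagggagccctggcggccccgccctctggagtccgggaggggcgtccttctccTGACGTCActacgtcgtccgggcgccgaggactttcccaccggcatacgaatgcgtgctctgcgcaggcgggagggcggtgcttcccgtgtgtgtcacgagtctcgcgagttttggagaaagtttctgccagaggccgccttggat

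The Mcu window holds GGAAGTG, a core of the ETS family, which 8.55% of 32851 RefSeq promoter windows of the same length also hold. The Smdt1 window holds the full cyclic AMP response element TGACGTCA, found in 1.55% of windows. The others searched were the NRF1 motif (3.74% of windows), AAGGTCA for ERR factors (4.08%), GAGGAAGT for PU.1 (2.44%), AAGATGGC for YY1 (1.56%) and GGGGCGGGG for SP factors (10.4%), and GAGGAAGT overlaps the ETS core in its letters. The Mcub window has a GC content of 48% and 8 CpG dinucleotides, against 60.8% and 15 for Mcu and 63.2% and 23 for Smdt1. The median window had 52.4% and 6. A match describes letters only, and its absence says nothing of a factor.

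Levels are FPKM (fragments scaled to gene length and to a size of the library), so genes can be set side by side. The library sizes that the values imply ran from 13.4 to 19.1 M. They were above the reads in genes in every Flox library and below them in most HKO libraries. Smdt1 was the most abundant member, with a mean of 66.6 FPKM over the 12 libraries, above 90.4% of the 9743 genes tested. Afg3l2 followed at 35.1 FPKM, then Slc8b1 at 12.4, Micu2 at 10.1, Letm1 at 7.78, Mcu at 5.14 and Mcur1 at 4.4 FPKM. Mcub had a mean of 1.61 FPKM, and Micu3 lay between 0.0979 and 0.358 FPKM in every library. Mcur1 varied least, from 3.91 to 5.01 FPKM, and Mcub most, with 18.4-fold between its lowest and highest library. Tests used limma on log2(FPKM + 1) for genes averaging 1 FPKM or more, with Benjamini-Hochberg adjustment over all 9743. A gene rose or fell where its adjusted p was below 0.05. That filter left 8 of the 9 genes, all but Micu3, and Mcub passed it only through its Flox libraries.

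**Figure D1:**
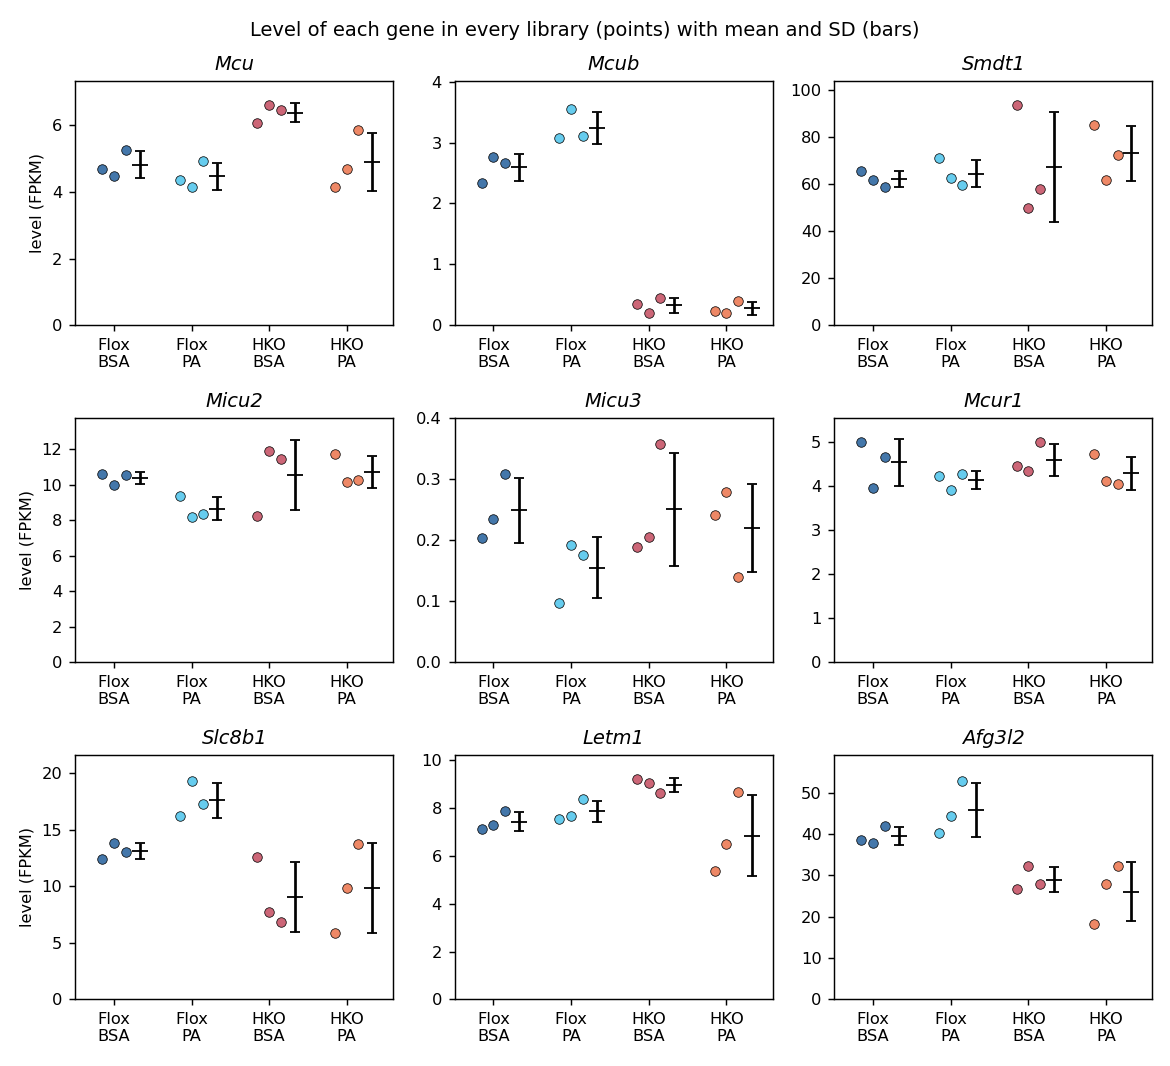
Level of each of the 9 genes in FPKM (vertical axes, from 0) in the 3 libraries of each group (points), with the group mean and SD (bars at the right of the points). Mcub lies between 2.34 and 3.54 FPKM in the 6 Flox libraries and between 0.192 and 0.44 FPKM in the 6 HKO libraries, while Mcur1 stays between 3.91 and 5.01 FPKM in all 12.

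Before these values are compared, the libraries themselves need describing. They held 15.02 to 18.42 M reads in genes, recovered from FPKM and gene length. G3bp1 measured 37.7 to 45.7 FPKM in Flox and 7.03 to 8.50 FPKM in HKO, so 18.8% to 20% of the Flox mean remained. The hepatocyte markers were present in every group, led by Alb (albumin) and Apoa2, and of 10 tested 5 rose in HKO with BSA and 6 with PA. Their summed level ran from 10850 to 11910 FPKM in Flox and from 17280 to 31200 FPKM in HKO. Markers of other cell types differed between the genotypes as well. The summed level of 14 macrophage markers was 1929 to 2363 FPKM in Flox and 86.1 to 158.2 FPKM in HKO, and all 14 fell in HKO in both treatments, Lyz2 and Cd74 being the most abundant of them. Of these markers Clec4f, Vsig4 and Timd4 passed the filter only through their Flox libraries. Of all tested genes 9.63% rose and 10.8% fell in HKO with BSA, and 16.9% rose and 18.8% fell with PA. None of the 14 was at 0 in all libraries of any group. The 6 neutrophil markers summed to 17.33 to 25.77 FPKM in Flox and 0.2079 to 0.7376 FPKM in HKO. In HKO 3 of them were at 0 in all libraries, and those 3 had at most 25 reads in a Flox library. The 8 endothelial markers summed to 9.345 to 14.61 FPKM in Flox and 6.343 to 9.348 FPKM in HKO. Of 3 that passed the filter 3 fell with BSA and 1 with PA. Clec4g, below the filter, was higher in HKO in both treatments, and with PA so were Lyve1, Kdr, Tek and Ptprb. The 6 cholangiocyte markers summed to 9.593 to 13.39 FPKM in Flox and 14.14 to 28.2 FPKM in HKO. Most of that sum was Spp1 and Sox9, with means of 9.214 and 5.374 FPKM over the 12 libraries. Of these 2, which passed the filter, 1 rose in HKO with BSA and 2 with PA. Below the filter, Krt19 and Epcam were higher in HKO in both treatments. Muc1 was lower in both, and Krt7 was lower with BSA only. In such bulk samples fewer cells of a type and less RNA per cell cannot be told apart. HKO libraries also varied more (median SD of a gene 0.21 with BSA and 0.223 with PA on the log2 scale, against 0.104 and 0.114 in Flox). In each library the deviation of a gene from its own mean over the 12 libraries was related to gene length (Spearman over genes, as a description). The coefficient was 0.0632 to 0.36 in the 6 Flox libraries and -0.448 to -0.109 in 5 of the 6 HKO libraries. It was lowest in HKO_PA 1, and HKO_BSA 2 was at 0.24. Deviations of a gene cancel over the libraries, so opposite signs in the genotypes are partly forced. Mitochondrially encoded genes took 2.21% to 4.34% of reads in Flox and 4.1% (HKO_BSA 1) to 8.2% in HKO. The part of both in the genotype differences below was not tested, apart from the fit with the length trend removed. HKO_BSA 1 stood apart from the other libraries of its group for Smdt1, Micu2 and Slc8b1. Whether each library is a different mouse is not stated in the labels, and p-values cover only the variation among these libraries, which may be technical.

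The comparison of genotypes asked whether loss of G3bp1 changed the RNA of the channel. Of the 8 tested genes 1 fell and 7 did not pass in BSA, where 20.5% of all genes passed (10.8% fell and 9.63% rose). In PA 3 fell and 5 did not pass, where 35.7% of all genes passed (18.8% fell and 16.9% rose). The median log2 change of the 8 was 0.01 in BSA and -0.08 in PA, beside 0.04 and 0.00 over all genes tested. The share of members that passed was therefore near or below that of all genes.

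The gene that fell in both treatments was Mcub, the inhibitory pore paralog (ENSMUSG00000027994, chromosome 3, 129914960 to 129970206, minus strand). It measured 2.34, 2.77 and 2.67 FPKM in Flox with BSA and 3.08, 3.54 and 3.10 FPKM in Flox with PA. In HKO it measured 0.342, 0.192 and 0.44 FPKM with BSA and 0.226, 0.201 and 0.402 FPKM with PA. All 6 HKO libraries lay far below all 6 Flox libraries, and those of the 2 HKO groups overlapped each other. The mean was 7.98-fold lower in HKO with BSA (2.59 ± 0.224 against 0.325 ± 0.124 FPKM, SD, n = 3; log2 -1.44, SE 0.11, limma adjusted p = 2.51e-07). It was 11.7-fold lower with PA (3.24 ± 0.262 against 0.276 ± 0.11 FPKM; log2 -1.73, SE 0.11, limma adjusted p = 4.11e-08). Since Mcub was in the fit only through its Flox libraries, the test was also made over all genes with no filter, where the adjusted p was 7.31e-06 with BSA and 2.26e-06 with PA. On the log2(FPKM + 1) scale a change of so low a gene is understated: with a pseudocount of 0.1 it was -2.71 in BSA and -3.19 in PA. The HKO levels rest on 4 to 10 reads per library, against 59 to 79 in Flox, and the ratio between HKO libraries carries that counting error.

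Mcub and the macrophage markers were low in the same libraries. With BSA the 14 macrophage markers were between 4.62-fold (Cd68) and 71.8-fold (Cd74) lower in HKO, with a median of 23.8-fold, and with PA between 4.45-fold and 67.7-fold, with a median of 18.3-fold. Both folds of Mcub lay within these ranges and under their medians. Per 1000 FPKM of summed macrophage markers, Mcub was at 1.04 to 1.18 FPKM in Flox with BSA, 1.42 to 1.68 in Flox with PA, 2.24 to 3.89 in HKO with BSA and 1.43 to 3.12 in HKO with PA. The part of the macrophage markers in the fall of Mcub was not tested. The 3 tested genes whose log2 level over the 12 libraries was most like that of Mcub were Syn1 (Pearson r = 0.994), Siglece (0.993), a receptor of myeloid cells, and H2-Eb1 (0.993), a chain of MHC class II. These correlations are a description, since the libraries fall into a high Flox and a low HKO cluster. Syn1 passed the filter only through its Flox libraries. Its means with BSA and PA were 2.05 and 2.45 FPKM in Flox and 0.143 and 0.0276 FPKM in HKO.

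**Figure D2:**
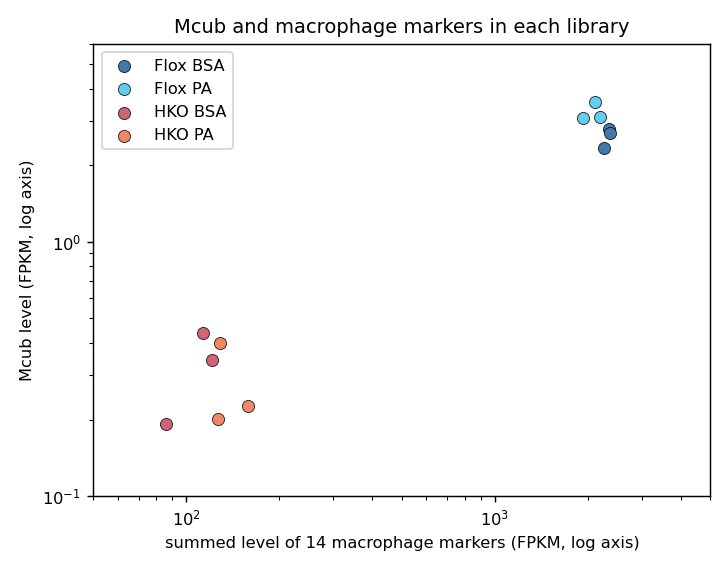
Level of Mcub (vertical axis) against the summed level of 14 macrophage markers (horizontal axis), both in FPKM on log axes, with 1 point per library. The 6 Flox libraries lie at 1929 to 2363 FPKM of markers and 2.34 to 3.54 FPKM of Mcub, and the 6 HKO libraries at 86.1 to 158.2 FPKM of markers and 0.192 to 0.44 FPKM of Mcub.

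Mcu, the pore-forming subunit (ENSMUSG00000009647, chromosome 10, 59446984 to 59616692, minus strand), did not fall with its paralog. It measured 4.68, 4.48 and 5.27 FPKM in Flox with BSA and 6.07, 6.61 and 6.45 FPKM in HKO with BSA, so that the HKO libraries all lay above the Flox libraries. The mean was 6.38 ± 0.28 against 4.81 ± 0.41 FPKM (SD, n = 3), a log2 difference of 0.34 (SE 0.13) that did not pass with limma (adjusted p = 0.0812). In 19.7% of all tested genes the HKO libraries with BSA likewise lay above those of Flox. The difference passed under quantile normalization (adjusted p = 0.0282), with a trend on gene length removed (0.0143) and without both HKO libraries numbered 1 (0.0223). In the other 12 alternatives it did not pass. The 3 fits called 2312, 2337 and 3579 of all 9743 genes, against 1994 in the main fit. The length trend and the omission of both libraries were chosen after the data were seen. With PA the values were 4.34, 4.15 and 4.92 FPKM in Flox and 4.14, 4.70 and 5.86 FPKM in HKO, which overlap (log2 0.10, SE 0.13, limma adjusted p = 0.568).

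The sodium-calcium exchanger gene Slc8b1 (ENSMUSG00000032754, chromosome 5, 120511168 to 120534024, plus strand), a route of calcium out of the matrix, was lower in HKO with PA. It measured 16.2, 19.3 and 17.3 FPKM in Flox with PA and 5.82, 9.86 and 13.8 FPKM in HKO with PA, with no overlap, as in 26% of all tested genes that lay lower in HKO. The mean was 17.6 ± 1.56 against 9.82 ± 3.97 FPKM (SD, n = 3), or 55.8% of the Flox level (log2 -0.85, SE 0.25, limma adjusted p = 0.0174). The call was lost without Flox_PA 2 (adjusted p = 0.0607), without HKO_PA 1 (log2 -0.55, adjusted p = 0.0722) and with no filter on low values (0.06). With BSA the values were 12.4, 13.8 and 13.0 FPKM in Flox and 12.6, 7.71 and 6.88 FPKM in HKO. HKO_BSA 1 lay among the Flox libraries and the other 2 lay well below them (log2 -0.53, SE 0.25, limma adjusted p = 0.158). Without HKO_BSA 1 the difference was log2 -0.76 and passed (adjusted p = 0.0365), in a fit that called 2376 of all genes, against 1994 in the main fit.

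Afg3l2, the m-AAA protease subunit (ENSMUSG00000024527, chromosome 18, 67404767 to 67449166, minus strand), fell in HKO with PA too. It measured 40.3, 44.2 and 52.9 FPKM in Flox with PA and 18.2, 27.8 and 32.2 FPKM in HKO with PA. The mean was 45.8 ± 6.46 against 26 ± 7.16 FPKM (SD, n = 3), or 56.9% of the Flox level (log2 -0.82, SE 0.18, limma adjusted p = 0.00388). Leaving out each library of both groups in turn kept the call, with adjusted p from 0.00117 to 0.0247. HKO_PA 1 held the lowest value, and without it the difference was log2 -0.59. With BSA the libraries did not overlap either, at 38.6, 37.9 and 42.0 FPKM in Flox and 26.6, 32.3 and 27.9 FPKM in HKO, as in 18% of all tested genes that lay lower in HKO, but the difference did not pass (log2 -0.44, SE 0.18, limma adjusted p = 0.111).

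Whether the genotype effect was larger with PA than with BSA is the interaction, and no member passed it (0 of 8 with limma, 0 at an unadjusted p under 0.05, 0 with limma-voom, where 0.267% of all genes passed with limma). Of all 9743 genes 1699 had an unadjusted p under 0.05 for it. For Slc8b1 it was log2 -0.32 (SE 0.35, adjusted p = 0.621) and for Afg3l2 log2 -0.38 (SE 0.26, adjusted p = 0.432). The member with the smallest p was Letm1 (log2 -0.44, SE 0.20, adjusted p = 0.288). The part of the macrophage markers in the lower Slc8b1 and Afg3l2 of HKO was not tested.

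The genes most like Slc8b1 over the 12 libraries were Nfkb1 (Pearson r = 0.983), which encodes a subunit of NF-kB, Plxnd1 (0.977), a semaphorin receptor, and Kctd10 (0.961). Those most like Afg3l2 were Slc7a1 (0.983), a transporter of cationic amino acids, Ubn1 (0.98) and Wars (0.978), the tryptophanyl-tRNA synthetase. Among the members themselves, over the 12 libraries, Mcub ran with Afg3l2 (r = 0.84) and Slc8b1 (0.78), Slc8b1 with Afg3l2 (0.82), and Mcu with Letm1 (0.77), while Micu2 ran against Slc8b1 (-0.82). These points share their library and its scaling. The means of Mcub, Slc8b1 and Afg3l2 were lower in HKO in both treatments. Correlations over both genotypes therefore include that difference, and they are a description.

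The essential subunit and the gatekeepers gave no call between the genotypes. Smdt1 (ENSMUSG00000022452, chromosome 15, 82338959 to 82349091, plus strand) measured 58.6 to 65.4 FPKM in Flox with BSA and 59.8 to 71.0 FPKM in Flox with PA. In HKO it spread from 49.7 to 93.5 FPKM with BSA and from 61.8 to 85.0 FPKM with PA. The highest value of each HKO group was in the library numbered 1, and the log2 difference was 0.06 (SE 0.20, limma adjusted p = 0.862) with BSA and 0.17 (SE 0.20, limma adjusted p = 0.532) with PA. Of its 1479 exonic bases 245 are shared with Pheta2 on the same strand, which reached at most 0.253 FPKM.

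Micu2 (ENSMUSG00000021973, chromosome 14, 57916261 to 57999262, minus strand), which gates the pore with calcium-binding EF hands, measured 9.97 to 10.6 FPKM in Flox with BSA. It measured 8.25, 11.9 and 11.4 FPKM in HKO with BSA, HKO_BSA 1 again standing apart (log2 0.00, SE 0.14, limma adjusted p = 0.99). With PA all 3 HKO libraries, at 11.7, 10.1 and 10.2 FPKM, lay above those of Flox, at 9.38, 8.19 and 8.37 FPKM. That difference did not pass (log2 0.28, SE 0.14, limma adjusted p = 0.133), and 26% of all tested genes had HKO above Flox in this way.

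Micu3 (ENSMUSG00000039478, chromosome 8, 40307458 to 40386308, plus strand), a gatekeeper best known from neurons, rested on 11 to 38 reads per library. Its group means were 0.249 ± 0.0538 FPKM in Flox with BSA, 0.155 ± 0.0503 in Flox with PA, 0.251 ± 0.0931 in HKO with BSA and 0.22 ± 0.0722 in HKO with PA (SD, n = 3). Exact two-sided permutation tests of 3 libraries against 3, whose smallest possible p is 0.1, gave p = 1 between the genotypes with BSA and p = 0.3 with PA. The groups overlapped in both comparisons.

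Mcur1 (ENSMUSG00000021371, chromosome 13, 43538393 to 43560191, minus strand) had log2 differences of 0.02 with BSA and 0.04 with PA (SE 0.12 each, limma adjusted p = 0.947 and 0.804). Letm1 (ENSMUSG00000005299, chromosome 5, 33739673 to 33782817, minus strand) measured 7.12, 7.28 and 7.90 FPKM in Flox with BSA and 9.21, 9.03 and 8.64 FPKM in HKO with BSA. The HKO libraries lay above Flox, as in 19.7% of all tested genes, and the difference did not pass (log2 0.24, SE 0.14, limma adjusted p = 0.278). With PA it measured 7.55, 7.67 and 8.37 FPKM in Flox and 5.38, 6.50 and 8.68 FPKM in HKO, and here the groups overlapped (log2 -0.20, SE 0.14, limma adjusted p = 0.306). Without HKO_PA 3, the highest of them, the fall passed (log2 -0.36, adjusted p = 0.0398). That fit called 4203 of all genes, against 3475 in the main fit.

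**Figure D3:**
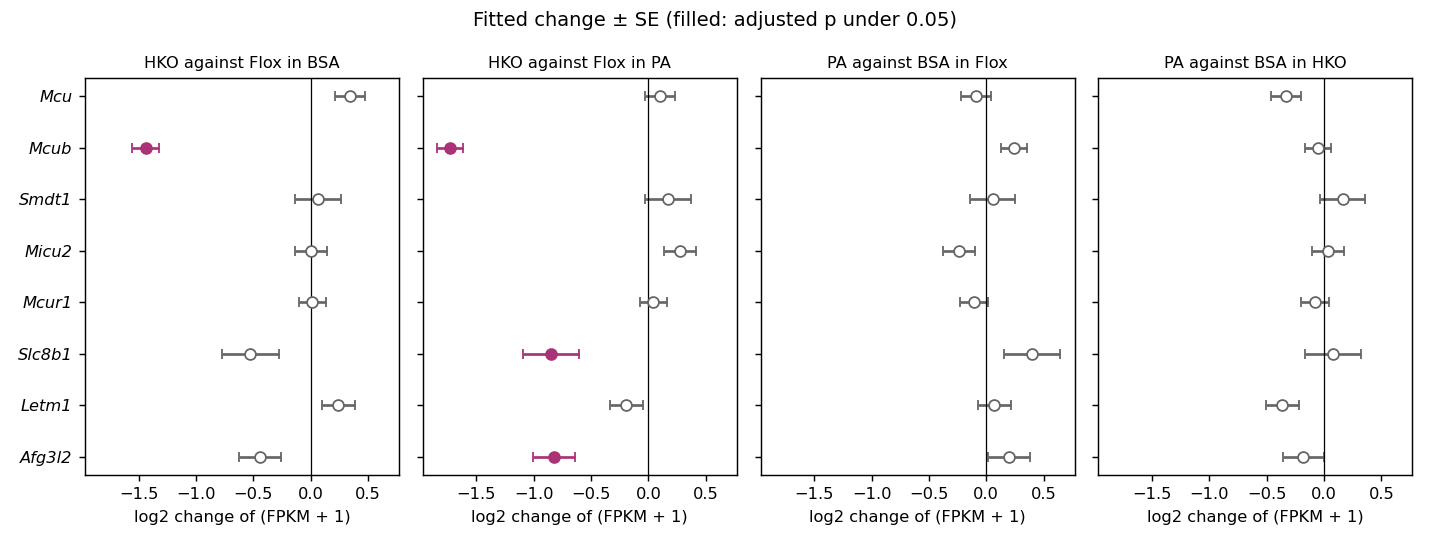
Fitted log2 change of (FPKM + 1) with its SE (horizontal axes) for the 8 tested genes in 4 comparisons, filled where the limma adjusted p was under 0.05. Mcub is at -1.44 and -1.73 between the genotypes, Slc8b1 at -0.85 and Afg3l2 at -0.82 with PA, and no gene is filled in the comparisons of PA with BSA.

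The comparisons of PA with BSA asked whether PA moved these genes within a genotype. With limma 0 of 8 passed in Flox, where 2.21% of all genes passed, with 0 at an unadjusted p under 0.05 and 0 with limma-voom. In HKO 0 of 8 passed, where 2.94% of all genes passed, with 2 at an unadjusted p under 0.05 (Mcu and Letm1) and 0 with limma-voom. Of all 9743 genes 1552 in Flox and 2031 in HKO had an unadjusted p under 0.05. The median log2 change of the 8 was 0.06 in Flox and -0.07 in HKO, beside 0.01 and 0.00 over all genes tested. Both comparisons of 1 genotype share libraries with the genotype comparisons above.

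In Flox the libraries of 2 genes lay wholly higher with PA, Mcub and Slc8b1, and those of Micu2 wholly lower. Of all tested genes 22.1% lay wholly higher and 16.9% wholly lower in this comparison. Mcub went from 2.59 to 3.24 FPKM on average (log2 0.24, SE 0.11, limma adjusted p = 0.325). Over the same libraries the summed macrophage markers went from 2253 to 2363 FPKM with BSA to 1929 to 2188 FPKM with PA, where 2 of the 14 fell and 12 did not pass. Slc8b1 went from 13.1 to 17.6 FPKM (log2 0.40, SE 0.25, limma adjusted p = 0.436). It passed when the fit held only the Flox libraries (adjusted p = 0.0198) or left out both HKO libraries numbered 1 (0.0422). Those fits called 1543 and 1356 of all genes, against 215 in the main fit, and in the other 14 alternatives Slc8b1 did not pass. Micu2 went from 10.4 to 8.64 FPKM (log2 -0.24, SE 0.14, limma adjusted p = 0.407). Afg3l2 overlapped, with means of 39.5 and 45.8 FPKM (log2 0.20, SE 0.18, limma adjusted p = 0.599), as did Mcu (log2 -0.09, adjusted p = 0.763), Letm1 (0.07, 0.832), Smdt1 (0.05, 0.913) and Mcur1 (-0.11, 0.676). Micu3, outside the fit, was at 0.204 to 0.309 FPKM with BSA and 0.0979 to 0.192 FPKM with PA, without overlap (exact permutation p = 0.1, the smallest possible).

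In HKO the libraries of Mcu lay wholly lower with PA, which 9.1% of all tested genes did. Its mean went from 6.38 to 4.90 FPKM (log2 -0.33, SE 0.13, limma adjusted p = 0.172). Letm1 went from 8.96 to 6.85 FPKM (log2 -0.36, SE 0.14, limma adjusted p = 0.172), with HKO_PA 3 among the BSA libraries and the other 2 below them. Without HKO_PA 3 this fall passed (log2 -0.53, adjusted p = 0.0321), in a fit that called 776 of all genes, against 286 in the main fit. In the other alternatives the fall of Letm1 did not pass. The other 6 tested genes had log2 changes between -0.18 (Afg3l2) and 0.16 (Smdt1). Among them was Slc8b1 at 0.08 (SE 0.25), whose libraries spread from 6.88 to 12.6 FPKM with BSA and from 5.82 to 13.8 FPKM with PA. Without both HKO libraries numbered 1, an omission chosen after the data were seen, Slc8b1 rose by log2 0.61 (adjusted p = 0.0265). That fit called 679 of all genes. In the other alternatives Slc8b1 did not pass, and in 3 of them its change turned negative.

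Ratios to Mcu within a library do not depend on how that library was scaled. The trend on gene length described above does not cancel in them, and no ratio was taken with it removed. The gene length was 6936 bases for Mcu and ran from 1318 (Mcub) to 9650 bases (Letm1) for the genes set against it. In Flox with BSA there were 0.538 units of Mcub FPKM per unit of Mcu (geometric mean of 3 libraries), and in HKO with BSA 0.0482. With PA the ratios were 0.725 and 0.0542. The Mcub/Mcu ratio was thus lower in HKO by 3.48 on the log2 scale with BSA (difference -3.48) and by 3.74 with PA (difference -3.74), and the libraries did not overlap. With 1 FPKM added to both genes the differences were -1.79 and -1.84, and the HKO values rest on 4 to 10 Mcub reads per library. Exact two-sided permutation tests of 3 against 3 cannot go below 0.1. Both exact tests gave p = 0.1, and 0.24 adjusted over the 24 ratio tests made.

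Within Flox the ratios of Mcub, Slc8b1 and Letm1 to Mcu lay wholly higher with PA than with BSA (log2 differences of 0.43, 0.53 and 0.19; exact permutation p = 0.1 each, adjusted 0.24), as did those of 29.8% of all other tested genes, and within HKO all 6 ratios overlapped. The 6 ratios share their denominator.

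The ratio of the exporter Slc8b1 to Mcu separated the genotypes in both treatments as well. It was 2.72 in Flox and 1.37 in HKO with BSA, and 3.94 in Flox and 1.91 in HKO with PA (exact permutation p = 0.1 each, adjusted 0.24). With BSA the ratios of Micu2 (2.16 in Flox, 1.63 in HKO) and Mcur1 (0.942 and 0.72) to Mcu lay wholly lower in HKO, and with PA both overlapped. Micu2 and Mcur1 themselves had fitted log2 differences of 0.00 and 0.02 with BSA, against 0.34 for the shared denominator Mcu. Of all other tested genes 43.4% had a ratio to Mcu wholly lower in HKO with BSA and 32.7% with PA. Letm1/Mcu overlapped with BSA and lay wholly lower in HKO with PA (1.76 in Flox, 1.38 in HKO). Smdt1/Mcu overlapped in all 4 comparisons, at 12.9 and 14.4 in Flox and 10.1 and 14.9 in HKO with BSA and PA.

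**Figure D4:**
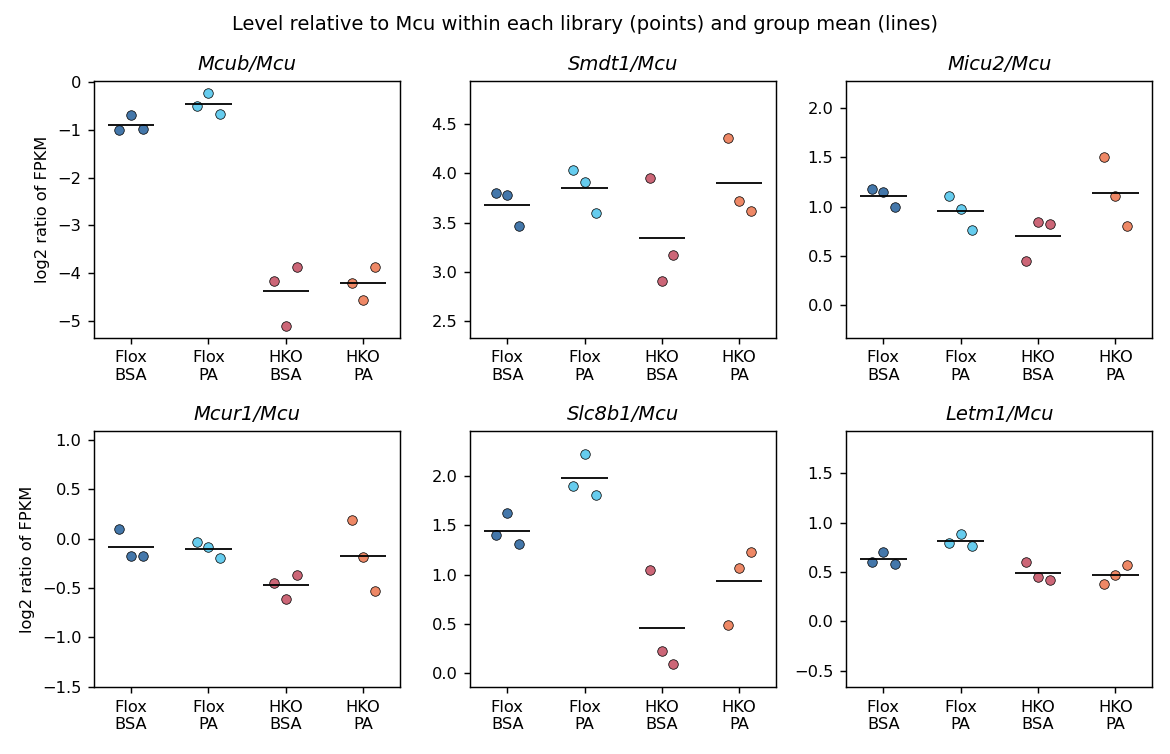
Log2 ratio of the FPKM of 6 genes to that of Mcu in each library (points) with the group mean (lines), each panel with its own vertical axis. Mcub/Mcu has group means of -0.89 and -0.46 in Flox and of -4.37 and -4.20 in HKO, and Slc8b1/Mcu of 1.44 and 1.98 in Flox and of 0.46 and 0.93 in HKO.

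A wider set of 64 calcium genes, in 5 lists, gave 53 that passed the filter. The 11 that did not include the plasma-membrane exchangers Slc8a1, Slc8a2 and Slc8a3, the last at 0 in every library. With limma none of the 53 passed for PA in Flox (7 at an unadjusted p under 0.05), for PA in HKO (9) or for the interaction (7), and limma-voom called 0 in each. Of all 9743 genes 1552, 2031 and 1699 had an unadjusted p under 0.05 in these 3 comparisons. Between the genotypes 3 rose and 1 fell with BSA (7.55% called, against 20.5% of all genes), and 6 rose and 5 fell with PA (20.8%, against 35.7%). Their median log2 change was 0.08 with BSA and -0.03 with PA.

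Around the pore, the inner-membrane assembly factors and proteases held 10 tested genes. None passed with BSA (0 of 10), and with PA Parl, a rhomboid protease, rose (18 ± 1.36 to 23.8 ± 1.5 FPKM, log2 0.38) and Afg3l1, the paralog and partner of Afg3l2, fell (31.9 ± 1.66 to 22.7 ± 6.51 FPKM, log2 -0.51, limma adjusted p = 0.0367). The call of Afg3l1 was lost in 9 of the alternatives tried, among them omission of HKO_PA 1 (log2 -0.31, adjusted p = 0.148), and that of Parl without Flox_PA 2, Flox_PA 3 or HKO_PA 1. Of 14 tested genes for transfer from the endoplasmic reticulum, which include the inositol trisphosphate receptors Itpr1 and Itpr3 (Itpr2 did not pass the filter) and the VDAC channels of the outer membrane, Bcap31, a protein of its membrane, alone passed, with PA (80 ± 8.03 to 143 ± 6.46 FPKM, log2 0.83, SE 0.18, limma adjusted p = 0.0037). Of 3 tested genes of other mitochondrial ion exchange Ghitm (also called TMBIM5), an inner-membrane protein, rose in HKO with PA (80.1 ± 3.21 to 137 ± 18.7 FPKM, log2 0.76, SE 0.17, limma adjusted p = 0.00384).

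Among 15 tested calcium-sensitive carriers and enzymes, the ATP-Mg carrier Slc25a23 (2.11 ± 0.436 to 3.70 ± 0.878 FPKM, log2 0.59) and Idh3g (11.9 ± 0.995 to 17.6 ± 1.42 FPKM, log2 0.52) rose in HKO with BSA. With PA 2 rose and 1 fell. Idh3b, a second subunit of isocitrate dehydrogenase, rose from 24.3 ± 1.66 to 35 ± 2.69 FPKM (log2 0.51) and Pdha1 of pyruvate dehydrogenase from 14.6 ± 0.692 to 21.9 ± 1.04 FPKM (log2 0.55). Ogdh, the oxoglutarate dehydrogenase, fell from 32.6 ± 3.71 to 18.7 ± 7.52 FPKM (log2 -0.85, limma adjusted p = 0.0136). Omission of 1 library ended the call of Slc25a23 (Flox_BSA 2), Idh3g (HKO_BSA 3), Ogdh (Flox_PA 3) and Pdha1 (Flox_PA 2 or 3).

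Calcium handling at the endoplasmic reticulum and plasma membrane held 11 tested genes, of which 1 rose and 1 fell with BSA and 1 rose and 3 fell with PA. Orai2, a store-operated channel subunit, fell in HKO from 6.87 ± 0.521 to 2.68 ± 0.709 FPKM with BSA (log2 -1.11, SE 0.14, limma adjusted p = 5.57e-05) and from 7.50 ± 0.227 to 3.11 ± 0.457 FPKM with PA (log2 -1.05, SE 0.14, limma adjusted p = 9.4e-05). Tmco1, a channel of the endoplasmic reticulum that releases calcium on overload, rose with PA (9.42 ± 0.158 to 17.9 ± 3.8 FPKM, log2 0.84) and with BSA (10.2 ± 1.52 to 15.8 ± 3.59 FPKM, log2 0.57). The call with BSA was lost without Flox_BSA 1, Flox_BSA 2, HKO_BSA 2 or HKO_BSA 3 (adjusted p from 0.0758 to 0.169). Atp2a2, the SERCA pump, fell with PA (36.2 ± 0.965 to 24.5 ± 4.99 FPKM, log2 -0.57) and was lost without Flox_PA 3 (adjusted p = 0.0506). The third that fell with PA was Calr, a calcium-binding chaperone of the endoplasmic reticulum (288 ± 16.4 to 215 ± 51.1 FPKM), named after its values were seen. The lower Orai2 in HKO stands beside the lower macrophage markers given above, whose part in it was not tested.

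**Figure D5:**
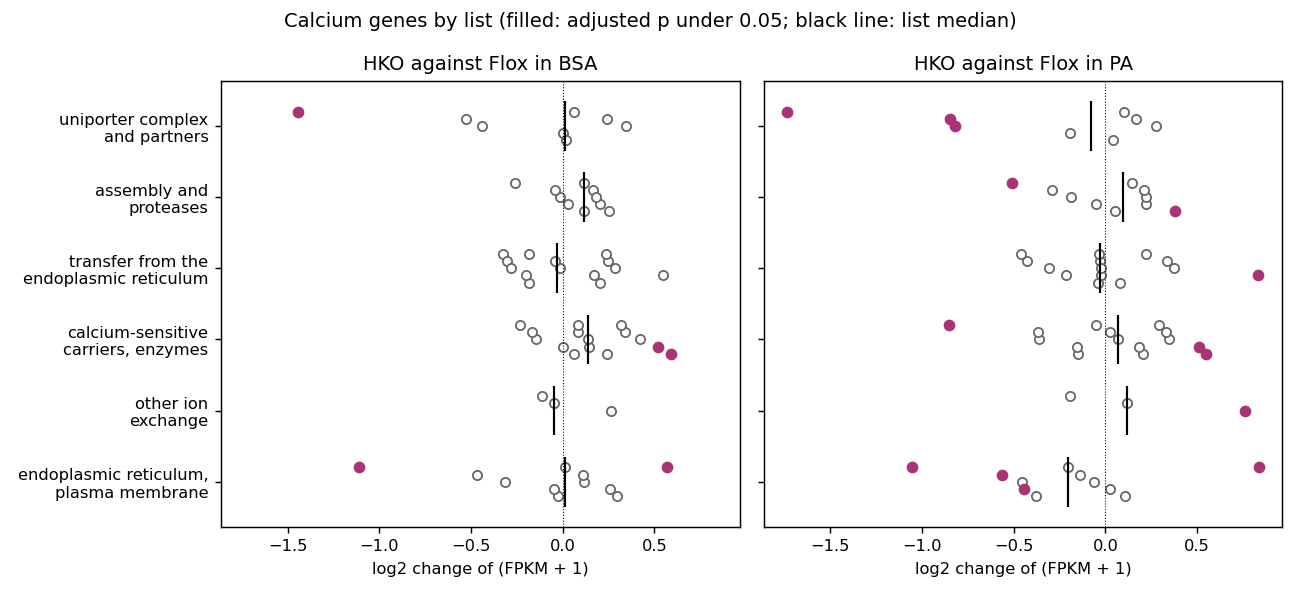
Fitted log2 change of (FPKM + 1) between HKO and Flox for each tested gene (points) of the 9-gene set and of 5 further lists, with BSA (left) and PA (right), filled where the limma adjusted p was under 0.05, with each list's median (black line). With BSA 1 of 8 genes of the set and 4 of the 53 others are filled, and with PA 3 and 11.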

How the data were processed

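Per the submitters' processing notes the genome build is GRCm38 (mm10). The sources used here name no aligner, counter or annotation release. The authors deposited 1 table of FPKM values, 1 column per library, with the gene length in bases. FPKM times length came out whole, with a tolerance of 0.01, for 100% of values up to 1000 reads, which recovered the read counts (15.02 to 18.42 M per library). Scaling each library by the median of its ratios to the geometric mean left the values as they were, apart from 1 common factor. The 9 genes, the lists of related genes and the tests were chosen with earlier results of these data known. Of the 9 genes 8 have the same coordinates in GENCODE M21.

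One limma 3.58.1 fit (R 4.3.3) of log2(FPKM + 1) with a pseudocount of 1, genes averaging 1 FPKM or more, 4 group means and a trended variance prior gave 5 comparisons, adjusted by Benjamini-Hochberg. The fit was tested on simulated data. Ratios used exact permutation tests (SciPy 1.17.1). Named are all 9 genes, of each list at most 3 genes past the threshold with the highest absolute change, the 2 most abundant markers of hepatocytes and macrophages, and the 3 genes most like each member that passed. Cd68, Clec4f, Vsig4, Timd4 and the endothelial and cholangiocyte markers were named after their values were seen.
Library numbers were not treated as pairs: deviations from the group mean correlated from -0.484 to 0.349 between BSA and PA libraries of 1 genotype and number.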

Additional observations from a re-analysis of the deposited data

How the results depend on the processing

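Mcub, which is tested only through its Flox libraries in all settings but the one with no filter, was past the threshold in HKO against Flox in each of them, the one with no filter included, with log2 changes from -2.96 to -1.10 with BSA and from -3.48 to -1.49 with PA. The count of members past the threshold in HKO against Flox with BSA, 1 as reported, was 2 with quantile normalization, with only the groups compared and with the length trend removed, and 4 without HKO_BSA 1 and HKO_PA 1 (Mcub, Mcu, Slc8b1 and Afg3l2). For PA in Flox it was 1 with only the groups compared and 1 without both HKO libraries numbered 1, and for PA in HKO 1 without both. Leaving out 1 library gave 0 to 0 members for PA in Flox, 0 to 1 for PA in HKO, 1 to 2 and 2 to 4 for HKO against Flox with BSA and PA, and 0 to 0 for the interaction.
Over all genes, PA in Flox called 215 genes as reported, 142 with a pseudocount of 0.1, 1543 with only the groups compared and 1356 without both HKO libraries numbered 1, and leaving out 1 library gave 64 (without Flox_PA 2) to 169. PA in HKO called 286, against 144 without a filter, 42 with only the groups compared and 679 without both libraries, and 129 (without HKO_BSA 2) to 776 (without HKO_PA 3) when 1 was left out. HKO against Flox called 1994 with BSA (3579 without both, 1329 without Flox_BSA 1 to 2376 without HKO_BSA 1) and 3475 with PA (2280 without Flox_PA 3 to 4203 without HKO_PA 3). The interaction called 26, against 58 with quantile normalization, 70 with the length trend removed and 88 without both libraries, and 0 (without Flox_PA 2) to 265 (without HKO_PA 3) when 1 was left out.
With the replicate number as a block the interaction called 15, and with genotype and number as a block 110 genes for PA in Flox, 113 for PA in HKO and 3 for the interaction. No member's call changed with either block, and that of Tmco1 with BSA was lost (adjusted p = 0.0527). The block of genotype and number cannot be combined with the genotype comparisons. Same-numbered libraries correlated from -0.212 to 0.363 between the genotypes.
Small changes that had not passed turned sign as follows. Smdt1 for PA in Flox was -0.0037 with quantile normalization and -0.02 to 0.11 with 1 library left out, and for PA in HKO -0.01 with the length trend removed and -0.03 to 0.42 with 1 left out. Smdt1 in HKO against Flox with BSA was -0.06 with quantile normalization and -0.20 without both libraries numbered 1 (-0.20 to 0.25 with 1 left out), and its interaction -0.04 with the length trend removed (-0.08 to 0.37). Micu2 for PA in HKO was -0.18 without both (-0.12 to 0.12 with 1 left out), and in HKO against Flox with BSA -0.08 to 0.15. Mcur1 for PA in HKO was 0.05 with the length trend removed, in HKO against Flox with BSA -0.06 to 0.08 with 1 left out, with PA -0.02 without both (-0.02 to 0.08), and for the interaction -0.05 without both (-0.03 to 0.10). Slc8b1 for PA in HKO was -0.18 to 0.37 with 1 left out, and its interaction 0.21 without both. For PA in HKO Afg3l2 was -0.35 to 0.05 and Mcub -0.13 to 0.01 with 1 left out, Mcu in HKO against Flox with PA was -0.01 to 0.20, and Letm1 there 0.003 with the length trend removed. The cause was not tested.
The Mcub/Mcu difference was -1.79 with BSA and -1.84 with PA when 1 FPKM was added to both genes, and other ratios moved by less than their spread. The length trend and the omission of both libraries numbered 1 were chosen after seeing the data. Depth limits Mcub in HKO and Micu3.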
